A study of Mus musculus with 4 samples.

Results

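Pi16/Dpp4 adventitial fibroblasts are the fibroblasts of these mammary tumours that carried transcripts of Pi16, Dpp4 or Sema3c. A barcode was first kept with at least 500 UMIs (unique molecular identifiers, the tags by which captured transcripts are counted), at least 250 detected genes and at most 20% mitochondrial UMIs. A kept barcode was called a fibroblast when Col1a1, Col1a2, Col3a1 and Dcn together made up at least 1% of its UMIs, with at most 1 UMI of Ptprc and fewer than 3 of Epcam, Krt8 and Krt18. A fibroblast with at least 2 UMIs of Pi16, Dpp4 and Sema3c in sum was a member. The rule found 753 members among 14555 kept barcodes, and the remaining 321 of 1074 fibroblasts are called the other fibroblasts. The members were thus chosen by the measured UMIs of these 11 genes, whose own levels are given only as a description.

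Fibroblasts build the collagen and elastic matrix of connective tissue. Those that express Pi16 and Dpp4 sit in the adventitia, the outer sleeve of vessels and ducts, and in the fascia, and have been described as a reservoir from which other fibroblast states can arise. Pi16 encodes a peptidase inhibitor anchored to the cell surface, Dpp4 a surface dipeptidase that trims chemokines, Sema3c a secreted guidance factor, and Efemp1 (fibulin 3) an extracellular matrix glycoprotein. Interleukin 1α is an alarm cytokine that acts on fibroblasts through Il1r1 and its partner Il1rap.

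The tumours were grown from H605, a HER2+ mouse mammary tumour cell line, of which 2000000 cells were injected into the mammary pad of FVB/NJ hosts, and they were harvested on day 14. The hosts were 2 wild type mice (WT) and 2 mice lacking Il1a (IL1α-/-), and the age given for the samples is 6 to 8 weeks. The deletion was in the host, so the injected cells of all 4 tumours were of the same line. Each tumour was 1 library of 10x Genomics 3' v3.1 chemistry, and per the labels the tumours formed 2 pairs collected on separate days, without saying which tumours shared a day.

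The libraries differed in depth, from 6704859 mouse UMIs in IL1α-/- replicate 1 to 28999819 in WT replicate 2. As a check of the labels, Il1a (chromosome 2, 129299610 to 129309972, minus strand) had 67 UMIs in the kept barcodes of WT replicate 1 and 112 in those of WT replicate 2. It had 1 UMI in IL1α-/- replicate 1 and 0 in IL1α-/- replicate 2. Of the kept barcodes, 13 sequences occurred in more than 1 library, and none of these was a member. The replicates are separate tumours, and p-values between host genotypes measure the spread between 2 tumours a group. Those of members against other fibroblasts rest instead on differences within each tumour, over the tumours of both genotypes. The remaining tests are described where they are given.

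The members numbered 243 in WT replicate 1, 116 in WT replicate 2, 241 in IL1α-/- replicate 1 and 153 in IL1α-/- replicate 2. Their median depth was 7417, 14227.5, 3306 and 8233 UMIs per cell in that order. The other fibroblasts were shallower in each tumour, with medians of 1997, 7167, 1511 and 6001 UMIs. The rule counts UMIs, so a deeper cell passes it more easily. At its edge, 17, 9, 20 and 19 members had exactly 2 UMIs of the 3 genes, while 32, 17, 15 and 31 fibroblasts had 1 and 62, 75, 28 and 61 had 0, in the same order of tumours. The 4 matrix genes took a median of 3.50% and 3.47% of a member's UMIs in the tumours numbered 1, and 6.79% and 6.47% in those numbered 2.

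Pi16 (chromosome 17, 29317680 to 29330593, plus strand in GRCm38) carried most of the selection. It was seen in 94.7% of the members of WT replicate 1, 94.8% of WT replicate 2, 96.7% of IL1α-/- replicate 1 and 90.8% of IL1α-/- replicate 2. Sema3c (chromosome 5, 17574281 to 17730268, plus strand) was seen in 81.5%, 72.4%, 72.2% and 71.9%. Dpp4 (chromosome 2, 62330073 to 62412231, minus strand) varied more, with 75.3%, 41.4%, 45.2% and 27.5% of members. In T cells of the same libraries, which should lack Pi16, the share with a Pi16 UMI was 0.638% to 1.31% at median depths of 1534 to 4448 UMIs. For Dpp4, which activated T cells also express, the share in T cells was 4.07% to 9.20%.

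**Figure D1:**
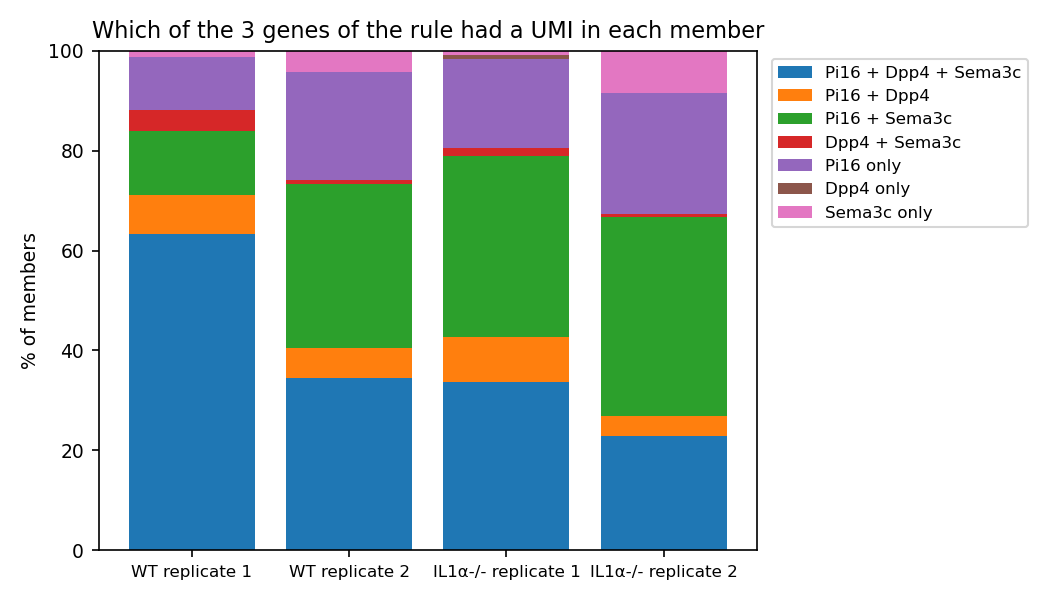
Share of members (y axis, %) by which of Pi16, Dpp4 and Sema3c had at least 1 UMI, for each of the 4 tumours (x axis). Members with all 3 genes made up 63.4% in WT replicate 1, 34.5% in WT replicate 2, 33.6% in IL1α-/- replicate 1 and 22.9% in IL1α-/- replicate 2.

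Only part of the members therefore showed the Pi16 and Dpp4 pair of the label. Both genes, with or without Sema3c, were seen in 173 of the 243 members of WT replicate 1 and in 41 of the 153 members of IL1α-/- replicate 2, as the plot of gene combinations shows. Pi16 without either of the others accounted for 10.7%, 21.6%, 17.8% and 24.2% of the members. Sema3c alone accounted for 1.23%, 4.31%, 0.830% and 8.50%, and those cells carried no Pi16 or Dpp4 UMI at all. At 1000 UMIs per cell, drawn at random from each member with that many, Dpp4 was seen in 30.7%, 6.96%, 18.6% and 7.95% of members.

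Of the marker genes outside the 3 of the gate, Col1a1 was seen in 98.8% to 100% of members, but it is part of the fibroblast rule. Efemp1 (chromosome 11, 28853204 to 28926743, plus strand) is the 1 label marker the rule did not use. It was seen in 85.6%, 68.1%, 76.3% and 71.2% of members, against 42.6%, 17.4%, 58.1% and 40.2% of the other fibroblasts. In CPM (a gene's UMIs per 1000000 UMIs of the sum, with TMM scaling over members and other fibroblasts), Efemp1 was 762, 280, 590 and 297 in members and 654, 37.2, 498 and 159 in the other fibroblasts. The members were higher in 4 of 4 tumours, by 0.99 ± 0.34 (SE) on the log2 scale, but the difference did not pass the test (edgeR adjusted p = 0.125). The label thus rests on Pi16 in nearly all members, on Dpp4 in a part of them, and on Efemp1 that the other fibroblasts carried as well.

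Markers of other cell types were low in the members. The 7 pericyte and smooth muscle genes summed to 32.9 to 63.2 CPM, most of it Abcc9 and Kcnj8, and Myh11 was at 0 in all 4 tumours. The 6 endothelial genes summed to 39.3 to 148 CPM, most of it Tek, with Cdh5, Emcn and Cldn5 at 0 in all 4. The 8 T and NK cell genes gave 9.21 and 27.9 CPM in WT and 87.4 and 34.9 CPM in IL1α-/-, and the 8 mononuclear phagocyte genes 25.3 to 34.9 CPM. The 8 tumour epithelium genes gave 10.1 to 21.7 CPM, the 4 Schwann cell genes 0 to 2.85 CPM and the 4 mesothelial genes 0 to 35.3 CPM. The 4 neutrophil genes gave 4.87 to 12.1 CPM, the 4 B and plasma cell genes 0 to 6.49 CPM and the 4 red cell genes 0.812 to 37.0 CPM. All 4 adipocyte genes were at 0. In empty droplets (barcodes of at most 100 UMIs) the phagocyte genes summed to 2356 to 5138 CPM. If all T cell and phagocyte UMIs in members came from such free RNA, it would make up 0.909%, 0.979%, 2.92% and 1.39% of the members' UMIs.

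The first comparison asked whether the host genotype went with a different proportion of these cells. Members were 72.1% of the fibroblasts in WT replicate 1 (95% exact binomial interval 67.0% to 76.8%) and 55.8% in WT replicate 2 (48.7% to 62.6%). They were 84.9% in IL1α-/- replicate 1 (80.2% to 88.8%) and 62.4% in IL1α-/- replicate 2 (56.1% to 68.5%). These intervals cover counting error only. The groups overlapped, and the lower share of each group was in its tumour numbered 2. Over the WT tumours the share averaged 63.9% ± 11.6 (SD, n = 2), and over the IL1α-/- tumours 73.7% ± 15.8 (SD, n = 2), a difference of 9.72 percentage points that was smaller than the spread between replicates (exact permutation p = 0.667, two-sided). The smallest p that 2 against 2 allows is 0.33. When Pi16 and Dpp4 both had to be present, the pair of the label, the difference turned to -10.5 points. With 1 tumour left out it ranged from -1.49 points (without IL1α-/- replicate 1) to 20.9 points (without IL1α-/- replicate 2). Within replicate numbers the difference was 12.8 points for number 1 and 6.68 points for number 2. The mean share was 78.5% over the tumours numbered 1 and 59.1% over those numbered 2.

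Thinning each cell to 1000 UMIs before applying the rule lowered all shares, to 46.9% and 18.9% in WT and to 64.7% and 25.3% in IL1α-/-, with the same order of tumours. Cells under 1000 UMIs were left out, which were 15, 1, 15 and 2 members and 33, 14, 16 and 11 other fibroblasts in the order WT replicates 1 and 2, then IL1α-/- replicates 1 and 2. The fibroblast limits were also applied to the thinned counts, which let in barcodes that had failed them at full depth. The thinned sets held 303, 201, 258 and 241 fibroblasts, against 289, 193, 253 and 232 with at least 1000 UMIs at full depth. As a share of all kept barcodes the members were 6.07% and 2.90% in WT, and 7.50% and 4.59% in IL1α-/-. The means were 4.48% ± 2.25 (SD, n = 2) and 6.04% ± 2.06 (SD, n = 2), a difference of 1.56 points that was within the replicate spread (exact permutation p = 0.667). The difference was -0.03 points without WT replicate 2 and -0.53 points when Pi16 and Dpp4 both had to be present. Digestion and live-cell enrichment can set such shares, and no absolute cell number is known.

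**Figure D2:**
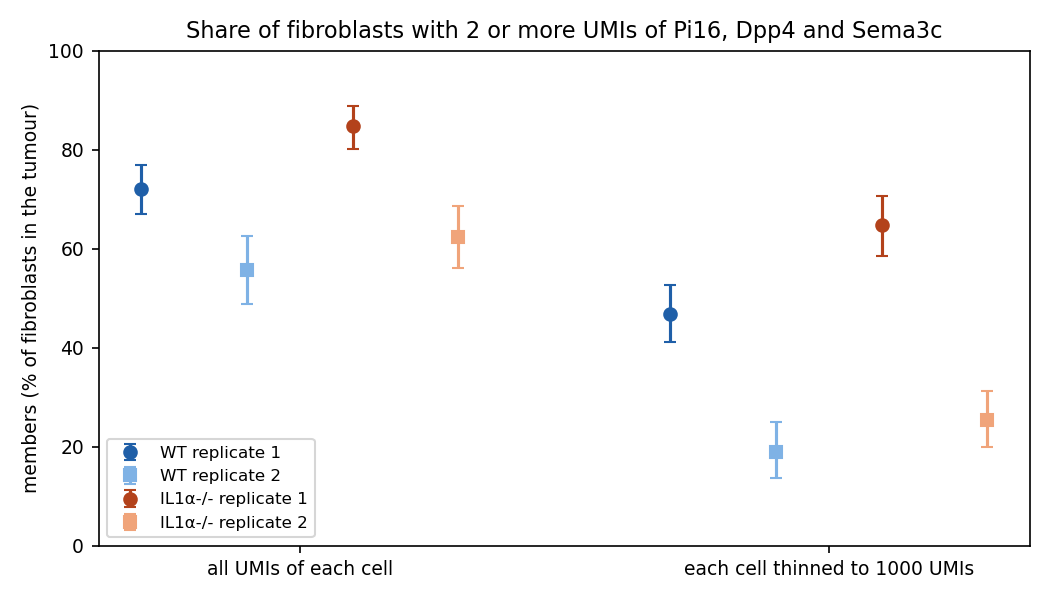
Members as a percentage of all fibroblasts of the tumour (y axis) for the 4 tumours, from all UMIs of each cell (left) and after thinning each cell to 1000 UMIs (right). Points are tumours and bars are 95% exact binomial intervals. Both tumours numbered 1 lie above both numbered 2 in either version, for example 46.9% and 64.7% against 18.9% and 25.3% after thinning.

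The second comparison asked what the members carry besides the genes that chose them. UMIs were summed per tumour over the members and over the other fibroblasts, so that 8 sums were compared with the tumour as a block. Members had more RNA of a set of surface and matrix genes known from adventitial fibroblasts, and less RNA of contractile and some wound matrix genes. Of 7708 genes tested outside the rule, 458 (5.94%) passed an adjusted p under 0.05, 281 (3.65%) higher and 177 (2.3%) lower in members, where 18% had an unadjusted p under 0.05. Both sets of cells were split by 3 of their own genes, so these calls describe which genes went along with Pi16, Dpp4 and Sema3c. The split also follows depth, since the members had more UMIs per cell in each tumour. After thinning to 1000 UMIs, some members fall below the gate and join the other fibroblasts. Barcodes that failed the fibroblast limits at full depth can also enter. In that fit 247 of the 458 genes were tested, 232 of these kept their direction and 48 were called again. Without WT replicate 2, the total fell to 181 calls, without WT replicate 1 to 204, and without the tumour block to 8.

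All 17 tested genes of the adventitial list outside the rule were higher in members in 4 of 4 tumours (over all genes tested, 14.3% were higher and 9.87% lower in all 4), and 15 of the 17 were called. The median over the list was 1.19 on the log2 scale, against 0.00 over all genes tested. The list was assembled with earlier results of these data known, and it names the state that the gate selects. The call of largest size was Smpd3, a sphingomyelinase, at 780, 69.2, 2049 and 150 CPM in members (WT replicates 1 and 2, then IL1α-/- replicates 1 and 2). In the other fibroblasts Smpd3 was 44.2, 2.07, 713 and 0 CPM, a difference of 3.31 ± 0.50 (SE, adjusted p = 0.00159). The tumours numbered 1 were far higher than those numbered 2 in members. Cd55, which shields cells from complement, was 507, 320, 610 and 445 CPM in members and 91.3, 43.4, 215 and 157 CPM in the others (4.29-fold, adjusted p = 2.8e-04). Its lowest member value lay above its highest value in the others.

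The stem and progenitor surface antigens of the list were higher as well. Cd34 was 1385, 794, 1628 and 1758 CPM in members against 418, 240, 995 and 895 CPM, a log2 difference of 1.29 ± 0.19 (adjusted p = 0.00141). Ly6a, the antigen Sca-1, was 2904, 1743, 1689 and 1788 CPM against 1184, 556, 1199 and 1019 CPM, and its near relative Ly6c1 was 1831, 740, 1605 and 966 CPM against 557, 102, 724 and 382 CPM. Ly6 genes are alike in sequence, so reads that match several of them could affect their counts. Cd248 (endosialin) rose by 0.91, Clec3b (tetranectin) by 1.30, and Anxa3, a membrane-binding annexin, by 1.87 on the log2 scale. Of matrix genes in the list, Fbn1, the backbone of microfibrils, rose by 0.74, Tnxb (tenascin X) by 1.19, Pcolce2, which promotes procollagen processing, by 1.57 and Fndc1 by 1.02. Igfbp6 (0.63), Creb5 (1.92) and Ugp2 (0.88) complete the 15. Mfap5 and Efemp1 were the 2 tested genes of the list that did not pass.

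**Figure D3:**
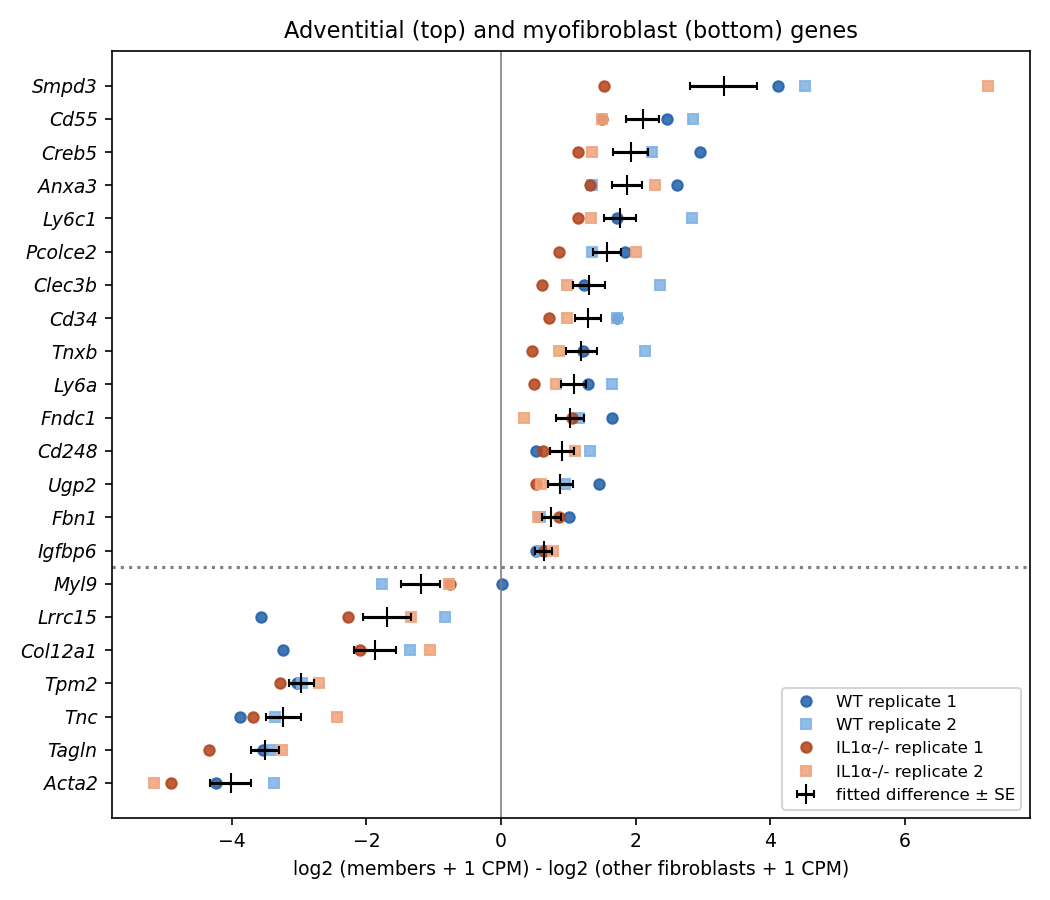
Difference between members and other fibroblasts (x axis, log2 of CPM with 1 added) for the called genes of the adventitial list (above the dotted line) and of the myofibroblast list (below it). Coloured points are the 4 tumours and black bars the fitted difference ± SE. The 15 adventitial genes lie to the right of 0 in every tumour, and Acta2 at the bottom has a fitted difference of -4.02.

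Myofibroblasts are contractile, matrix-forming fibroblasts marked by smooth muscle actin. Of 9 tested genes of that list, 7 were called lower in members and 0 higher, with a list median of -1.88 on the log2 scale. Over all genes tested, 2.3% were called lower. Postn, the most abundant gene of the list in members, and Cthrc1 were not called. Acta2, smooth muscle actin (chromosome 19, 34241090 to 34255590, minus strand), was 7.15, 79.2, 1.29 and 2.58 CPM in members and 153, 827, 67.9 and 127 CPM in the others. The log2 difference was -4.02 ± 0.30 (SE, adjusted p = 8.5e-06), although WT replicate 2 stood above the other tumours in both sets. Tagln (transgelin, which binds actin) was 20.9, 108, 1.29 and 19.8 CPM against 253, 1180, 45.2 and 198 CPM (adjusted p = 1.8e-06). The log2 difference was -2.97 for Tpm2 (tropomyosin 2), -3.23 for Tnc (tenascin C), -1.88 for Col12a1, -1.69 for Lrrc15 and -1.19 for Myl9, a myosin light chain. For Myl9 the members were not lower in WT replicate 1, at 26.8 against 26.5 CPM. Pericyte and smooth muscle genes summed to 106 and 131 CPM in the other fibroblasts of WT against 53.0 and 63.2 CPM in members. In IL1α-/- the order was reversed, with 24.5 and 29.0 CPM in the others against 32.9 and 44.6 CPM in members. Abcc9, the 1 such gene tested, was called higher in members (log2 difference 1.49). The part of pericyte and smooth muscle RNA in the result was not tested.

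Among all tested genes, the 12 of smallest p that were higher in members in 4 of 4 tumours included receptors and secreted regulators. Ackr3, the scavenging receptor for Cxcl12, was 349, 198, 956 and 317 CPM in members and 38.3, 43.4, 339 and 72.8 CPM in the others (log2 difference 2.19, adjusted p = 1.8e-04). Agtr2, the angiotensin II type 2 receptor, was 139, 83.3, 82.6 and 67.9 CPM against 11.8, 9.30, 45.2 and 11.8 CPM (6.98-fold, adjusted p = 2.2e-04). Mrgprg, a Mas-related G protein-coupled receptor, was 401, 39.6, 957 and 108 CPM against 11.8, 1.03, 215 and 11.8 CPM. Sfrp4, a secreted Wnt-binding protein, was even between tumours at 578, 823, 452 and 459 CPM in members and at 136, 164, 158 and 174 CPM in the others. Pcsk6, a proprotein convertase, rose by 2.77, Tmem100 by 2.40, the adhesion molecule Cadm3 by 2.42, Ebf2, a transcription factor of adipocyte progenitors, by 1.84, Gas7 by 1.69 and Sbsn by 1.75. Cd55 has been described above.

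Ctla2a, which encodes an inhibitor of cysteine proteases, had the smallest p of all genes higher in members (fold 4.15, adjusted p = 8.5e-06). Its members' values were 8791 and 4222 CPM in WT, and 316 and 6685 CPM in IL1α-/-. IL1α-/- replicate 1 stood apart from the other 3 tumours, in the other fibroblasts too, with 90.5 CPM against 1770, 916 and 2014 CPM. Ctla2a has a close relative, Ctla2b, and reads that match both could affect its count. Singling out this tumour followed from seeing its values, and Ctla2a was also called without it.

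The 12 genes of smallest p that were lower in members in 4 of 4 tumours held, besides Tagln, Tpm2, Acta2 and Tnc, several inflammatory and secreted factors. Spp1 (osteopontin) was 57.2, 209, 0 and 6.88 CPM in members and 5698, 3534, 56.6 and 156 CPM in the others (log2 difference -5.21, adjusted p = 2.6e-05). In both sets it was higher in the 2 WT tumours. Cxcl9, a chemokine for T cells, was 4.17, 229, 78.7 and 78.2 CPM against 147, 1335, 679 and 616 CPM, and Ccl2, a chemokine for monocytes, was 91.8, 343, 85.2 and 129 CPM against 330, 792, 339 and 696 CPM. Inhba, the activin A subunit, was at most 7.74 CPM in members and 22.6 to 220 CPM in the others. The log2 difference was -2.15 for Slc7a2, an arginine transporter, -2.86 for Serpina3g, a protease inhibitor of a multigene family, -1.58 for Loxl3, a collagen cross-linking enzyme, and -1.82 for Cnn2 (calponin 2). Phagocytes express several of these genes, and the 8 phagocyte markers summed to 376, 46.2, 98.0 and 19.3 CPM in the other fibroblasts against 25.3, 31.9, 29.1 and 34.9 CPM in members. In the free RNA Spp1 stood at 860, 851, 188 and 231 CPM. The part of phagocyte or free RNA in these differences was not tested.

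The remaining lists split in both directions, where 3.65% of all genes tested were called higher and 2.3% lower in members. Of 27 elastic fibre and matrix glycoprotein genes tested, 7 were higher and 3 lower. Eln (elastin) was 646, 1925, 1812 and 2484 CPM in members against 271, 899, 735 and 1845 CPM (adjusted p = 0.00357), and Ogn, Prelp, Emilin2 and Ltbp4 were higher with Fbn1 and Tnxb. Bgn (biglycan), Emilin1 and Tnc were lower. Of 14 collagen genes outside the gate, 3 were lower (Col8a1, Col12a1 and Col15a1) and none higher. Of 24 genes for matrix proteases, their inhibitors and cross-linking, 5 were higher (Adamts1, Adamts5, Loxl1, Pcolce2 and Htra3), and Timp1 and Loxl3 were among the lower ones. Timp1, the tissue inhibitor of metalloproteinases, was 208, 804, 68.4 and 172 CPM in members and 2450, 3240, 79.2 and 635 CPM in the others. Col15a1 was also the 1 called gene of the 10 in the parenchymal fibroblast list, with a log2 difference of -1.24.

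Signalling genes also went in both directions, beside the same 3.65% higher and 2.3% lower of all genes tested. Of 21 TGF-beta pathway genes, 5 were higher in members, namely the receptors Tgfbr2 and Tgfbr3, the latent binding proteins Ltbp1 and Ltbp4, and Ski, a repressor of the pathway. Among the lower ones were the ligands Tgfb1, Tgfb3 and Inhba, the binding protein Ltbp2, and Ctgf, which TGF-beta is known to induce. Tgfb1 was 18.5, 27.2, 12.9 and 18.9 CPM against 85.4, 82.7, 22.6 and 38.9 CPM. Of 12 Wnt pathway genes, Sfrp4 and Wisp2 were higher and Dkk3 lower. Of 25 growth factor and receptor genes, 4 were higher (Vegfd, Fgf18, Kitl and Igfbp6) and 7 lower (Vegfa, Vegfc, Pdgfa, Pdgfrb, Igfbp2, Igfbp3 and Igfbp7). Vegfd, a lymphatic growth factor, was 291, 202, 156 and 209 CPM in members against 153, 25.8, 56.6 and 69.4 CPM, while Vegfa was 48.3, 39.0, 112 and 48.2 CPM against 70.7, 173, 136 and 193 CPM.

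Genes of glycolysis and of the cell cycle were called only lower. Over all genes tested, 3.65% were called higher and 2.3% lower in members. Of 22 hypoxia and glycolysis genes, 6 were lower (Vegfa, Ero1l, Tpi1, Pgk1, Pkm and P4ha2) and 0 higher, with a list median of -0.73. Of 10 cell cycle genes, 4 were lower (Top2a, Birc5, Cenpa and Stmn1) and 0 higher, all at low levels, for example Stmn1 at 4.77 to 12.9 CPM in members and 22.0 to 45.2 CPM in the others. Of 17 chemokine and stromal cytokine genes, Cxcl9, Cxcl16, Ccl2 and Ccl8 were lower and 0 higher. Of 25 immediate early and heat shock genes, Fos, Egr1, Atf3 and Dusp1 were higher and 0 lower. The 14 antigen presentation genes gave 0 calls, with 14 of 14 fitted below 0 and a median of -0.40. Of 16 metallothionein and oxidative stress genes, Gpx3 alone was called, higher by 0.64, a count near the 5.94% called over all genes tested.

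IL-1 genes and their targets did not move as a group. The few calls per list below stand beside 3.65% of all genes tested called higher and 2.3% lower. Il1r2, the decoy receptor that binds IL-1 without signalling, was higher in members at 159, 15.4, 90.3 and 27.5 CPM against 44.2, 5.17, 33.9 and 10.2 CPM (log2 difference 1.65, adjusted p = 0.00142). The signalling receptor Il1r1 was 107, 155, 107 and 95.4 CPM in members and 206, 126, 79.2 and 149 CPM in the others (adjusted p = 0.522). Of 23 genes known to respond to IL-1 and NF-kB, Tnfaip6, Has1 and Nfkbiz were higher in members and Ccl2 lower. Of 24 interferon response genes, Ifit1 and Ifi27l2a were higher and Cxcl9 lower. Of 10 complement genes, Cfb and Cd55 were higher and Cd59a lower. Of 14 adipocyte lineage genes, Cebpd, Klf4 and Ebf2 were higher and 0 lower. Il33 (0.19), Il1rap (-0.22), Cxcl12 (-0.02) and Thbs1 (-0.82) did not pass the test, and Il1a, Il1b and Il1rn were too low to be tested.

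The third comparison asked how the members differed between WT and IL1α-/- hosts. UMIs were summed over the members of each tumour, 1736704, 1755551, 789712 and 1232218 in the order used above, and the 2 WT sums were compared with the 2 IL1α-/- sums. Of 9136 genes tested, 0 (0%) passed an adjusted p under 0.05 in edgeR's quasi-likelihood test. An unadjusted p under 0.05 was reached by 485 genes (5.31%). The groups did not overlap in 36.7% of genes, of which IL1α-/- was higher in 18.2% and lower in 18.6% of all genes tested. DESeq2 called 6 genes (0.0657%), Cxcl14, Nr4a1, Eif3j1, Milr1, Fabp4 and Dsel. Leaving out WT replicate 1 gave 4 calls and leaving out IL1α-/- replicate 2 gave 2. CPM values from here on are scaled over the 4 member sums.

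The genes of smallest p with higher values in IL1α-/- did not pass. Milr1, an inhibitory immunoglobulin-like receptor (chromosome 11, 106751226 to 106768794, plus strand), was 4.01 and 2.88 CPM in WT, and 47.8 and 38.1 CPM in IL1α-/- (log2 difference 3.60 ± 0.36, adjusted p = 0.387). Polg2, a subunit of the mitochondrial DNA polymerase, was 13.2 and 12.1 CPM against 47.8 and 53.4 CPM. Its gene (106768253 to 106779537, minus strand) overlaps the end of Milr1, and how the counting used strand is not given in the sources used here, so the pair is uncertain. Nr4a1, an immediate early nuclear receptor, was 61.9 and 77.8 CPM against 310 and 334 CPM (log2 difference 2.20 ± 0.28, adjusted p = 0.387). Eif3j1, a translation initiation factor with a near-identical copy Eif3j2, was 13.8 and 15.0 CPM against 113 and 82.2 CPM. Ppp1r10 was 54.4 and 47.2 CPM against 133 and 196 CPM. Cd52, a lymphocyte antigen, was 3.44 and 6.91 CPM against 22.7 and 28.8 CPM, and free RNA alone could account for 69.7% to 100% of it.

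The genes of smallest p with lower values in IL1α-/- did not pass either. Cxcl14, a chemokine made by fibroblasts (chromosome 13, 56288643 to 56296551, minus strand), was 249 and 353 CPM in WT, and 45.3 and 36.4 CPM in IL1α-/- (log2 difference -2.88 ± 0.33, adjusted p = 0.387). The 2 groups were far apart, and DESeq2 gave it an adjusted p of 6.3e-07. Leaving out WT replicate 1, edgeR gave an adjusted p of 0.0416 for it, on a single WT tumour whose spread is assumed to be that of the IL1α-/- tumours. Fabp4, a fatty acid binding protein of adipocytes and capillary endothelium, was 90.6 and 80.6 CPM against 16.4 and 8.47 CPM. Steap4, a metalloreductase, was 79.7 and 77.2 CPM against 17.6 and 20.3 CPM, and Dsel, an epimerase of dermatan sulphate, was 340 and 331 CPM against 118 and 109 CPM. Igfbp2 had 32 and 27 UMIs in WT and 0 in both IL1α-/- tumours, which with a floor of 3 counts over the group is at least 11.2-fold lower. Col11a1, a fibrillar collagen, had 18 and 31 UMIs against 0 and 0, at least 9.26-fold lower.

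**Figure D4:**
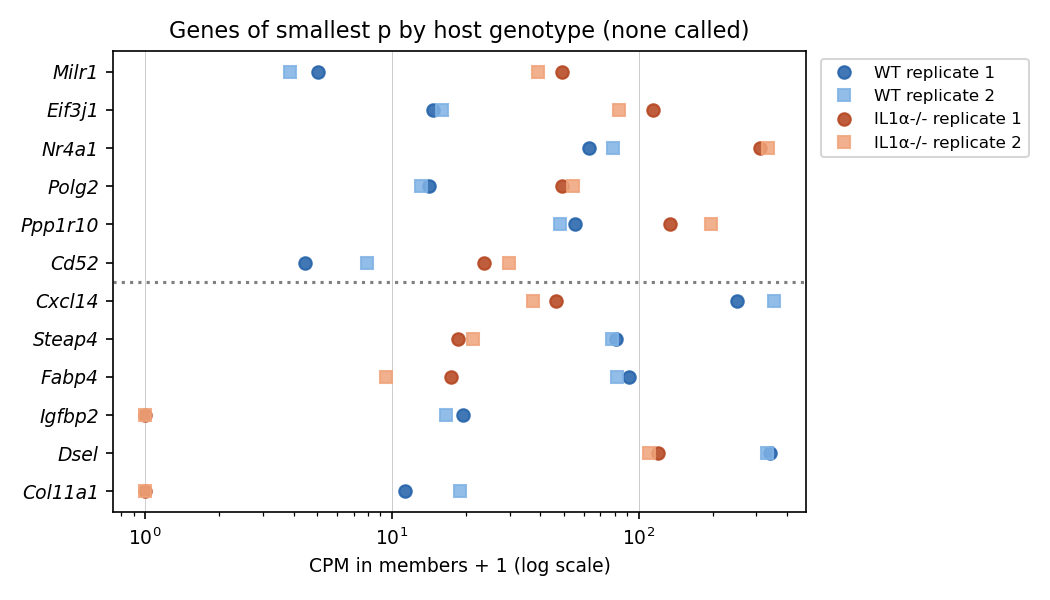
CPM in members plus 1 (x axis, log scale) of the 12 genes of smallest p between host genotypes, higher in IL1α-/- above the dotted line and lower below it, with 1 point per tumour. WT (blue) and IL1α-/- (orange) points do not overlap for any of the 12, which the choice of genes required, and none passed the adjusted threshold.

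The receptors of the missing cytokine were present in members, with values that overlapped between the groups. Il1r1 was 103 and 151 CPM in WT, and 105 and 94.0 CPM in IL1α-/- (log2 difference -0.35 ± 0.29, adjusted p = 0.858). Il1rap was 22.4 and 11.5 CPM against 17.6 and 11.01 CPM, and Il33, an alarm cytokine of the same family, was 158 and 172 CPM against 258 and 62.7 CPM. The members themselves held 1 UMI of Il1a in WT replicate 1 and 0 in the other 3 tumours, Il1b 1, 1, 8 and 0 UMIs, and Il1rn 5, 5, 5 and 0. Of 23 tested IL-1 and NF-kB response genes, 0 were called, 11 were above and 12 below 0, and the median was -0.02. Tnfaip6 was 680 and 530 CPM against 1379 and 1394 CPM, and Has1, Nfkbiz and Mmp3 overlapped between groups or differed less.

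Pi16, Dpp4 and Sema3c chose the members, so their values are given only as a description. Pi16 was 1407 and 799 CPM in WT, and 2236 and 962 CPM in IL1α-/-, Dpp4 386 and 90.4 against 234 and 75.4 CPM, and Sema3c 615 and 219 against 531 and 361 CPM. Efemp1 was 733 and 273 CPM against 575 and 292 CPM (log2 difference -0.21 ± 0.56), a sign that turned without WT replicate 1 (0.65) and without IL1α-/- replicate 2 (0.19). In each of these 4 genes the tumours numbered 1 were higher than those numbered 2 in both genotypes. Of the 17 adventitial genes outside the rule, 13 were above and 4 below 0 with a median of 0.37, against 0.01 over all genes tested. Cd34 was 1332 and 774 CPM against 1589 and 1733 CPM without overlap (adjusted p = 0.828), and Ly6a was 2792 and 1698 CPM against 1648 and 1762 CPM.

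Among the other lists 0 genes were called. Of the lists of gene programs, the myofibroblast list had 9 of 10 genes below 0 and a median of -1.57. Acta2 was 6.88 and 77.2 CPM in WT, and 1.26 and 2.54 CPM in IL1α-/- (adjusted p = 0.828), with most of its UMIs in WT replicate 2, and Postn, the most abundant gene of the list, was 1634 and 4349 CPM against 3063 and 6281 CPM. Without WT replicate 1, edgeR gave Acta2 an adjusted p of 0.0271, on WT replicate 2 alone, which holds most of its UMIs and whose spread is assumed to be that of the IL1α-/- tumours. Of 7 pericyte and smooth muscle markers 2 could be tested, with a median of -1.06. Both were lower in IL1α-/- without overlap, as were 18.6% of all genes tested. Kcnj8, a potassium channel subunit of pericytes, was 14.9 and 18.4 CPM against 1.26 and 6.78 CPM. Abcc9, its partner, was 35.5 and 42.0 against 31.5 and 34.7 CPM. The others were near the floor, with Rgs5 at 0 and 3 UMIs in both genotypes and Cspg4 at 4 and 2 against 0 and 2. Notch3, Mcam and Myh11 had at most 1 UMI in any tumour. The part of pericyte and smooth muscle RNA in the myofibroblast values was not tested. The antigen presentation list had 10 of 14 genes above 0 and a median of 0.59. H2-K1 was 652 and 784 CPM against 1590 and 1333 CPM, and H2-D1 was 870 and 981 against 1768 and 1577 CPM. B2m, which forms the light chain of class I molecules, was 1062 and 843 against 1670 and 1467 CPM. Reads that match several H2 genes could affect the H2 counts. The few leukocyte markers that could be tested had medians above 0 as well. They were 2 of 8 T and NK cell genes with a median of 0.97 and 2 of 8 mononuclear phagocyte genes with a median of 1.14. In CPM without TMM scaling, all 8 phagocyte genes summed to 25.3 and 31.9 in WT, and 29.1 and 34.9 in IL1α-/-. The 8 T and NK cell genes summed to 9.21 and 27.9 against 87.4 and 34.9. Cd3e, of the T cell receptor complex, was 4.59 and 12.7 CPM against 40.3 and 11.01 CPM, overlapping. Cd68, a lysosomal protein of phagocytes, was 2.29 and 2.88 CPM against 15.1 and 11.9 CPM without overlap, while Tyrobp, a signalling adaptor of phagocytes, was 9.74 and 4.03 against 7.55 and 5.93 CPM. The part of leukocyte RNA in the antigen presentation values was not tested. The chemokine list had 13 of 17 genes below 0 and a median of -0.46.

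The immediate early and heat shock list had 20 of 25 genes above 0, a median of 0.45 and 12 genes higher without overlap, where 18.2% of all genes were. Fos was 1614 and 1658 CPM in WT, and 3608 and 3480 CPM in IL1α-/-, and Egr1 2222 and 1191 against 3267 and 4033 CPM. Medians of the remaining gene program lists lay between -0.34 and 0.15. Of the other cell type lists not yet given, 2 endothelial genes had a median of 0.66 and the 1 tested tumour epithelium gene, Erbb2, stood at -0.20. Cxcl12 was 422 and 244 CPM against 457 and 258 CPM, and Thbs1 was 296 and 174 against 98.2 and 398 CPM, both overlapping.

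The genotype difference was also compared between members and other fibroblasts. Of 8881 genes tested for the interaction, edgeR called 0 (0%), with 366 (4.12%) at an unadjusted p under 0.05, and DESeq2 called 0. No genotype difference can therefore be called particular to the members. Cxcl14 differed by -2.88 in members and by -3.70 in the other fibroblasts, Nr4a1 by 2.20 and 2.68, and Dsel by -1.56 and -0.28 (interaction adjusted p = 0.959 for Dsel). Without WT replicate 1 or WT replicate 2 the interaction test called 19 and 17 genes.

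Since number 1 and number 2 tumours stood apart in the shares, the members were also compared by replicate number with genotype as a term, a test added after seeing the data. Whether a number marks a collection day is not stated, and depth moved with it within each genotype, as given above. Of 9136 genes, 30 (0.328%) were called, 19 (0.208%) higher and 11 (0.12%) lower in number 2, and 10.1% had an unadjusted p under 0.05. Numbers did not overlap in 35.8% of genes, and number 2 was the higher in 17.4%. The count depended on small changes of the rule. It was 0 (with 841 genes at an unadjusted p under 0.05) when barcodes under 1000 UMIs were left out, 167 with at least 3 gate UMIs and 88 with DESeq2.

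Several genes of the matrix were among the 12 named as higher in number 2. Angptl1, a secreted angiopoietin-like factor, was 4.01 and 12.6 CPM in WT replicate 1 and IL1α-/- replicate 1, and 243 and 560 CPM in the replicates numbered 2 (log2 difference 5.66 ± 0.34, adjusted p = 0.0124). Ren1 (renin) was 1.15 and 6.29 CPM against 65.1 and 228 CPM, and the imprinted RNA H19 was 14.9 and 55.4 CPM against 224 and 587 CPM. Cilp, a matrix protein, was 251 and 112 CPM against 1522 and 979 CPM, and Col12a1 was 94.0 and 32.7 CPM against 654 and 320 CPM. Lrrc15, a marker of tumour myofibroblasts, was 13.8 and 3.78 CPM against 183 and 47.4 CPM. The matrix proteins Thbs4, Fbln7 and Adamtsl2, the collagen prolyl hydroxylase subunit P4ha3, and Ddah1 and Tspan13 make up the 12. Of the 10 myofibroblast genes, 10 were fitted above 0 in number 2 and 2 were called, with a median of 2.12. Over all genes tested, 0.208% were called higher and the median was -0.0046.

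Smpd3 headed the genes lower in number 2, at 750 and 1999 CPM in number 1 and 67.4 and 147 CPM in number 2 (log2 difference -3.62 ± 0.26, adjusted p = 0.0124). Mrgprg was 386 and 934 CPM against 38.6 and 107 CPM, and Aldh1a3, a retinoic acid synthesising enzyme, was 195 and 132 CPM against 24.8 and 19.5 CPM. Cxcl13, a B cell chemokine, was 396 and 13.8 CPM against 2.30 and 0.847 CPM, so that most of its UMIs were in WT replicate 1. Car8, Aox3, Efhd1, Enpep, Thbd, Duox2 and Prdm8 were the other 7. Of the 17 adventitial genes outside the rule, 14 were fitted lower in number 2, Smpd3 was called, and the median was -0.43. Over all genes tested, 0.12% were called lower. Smpd3 and Mrgprg were also among the genes called higher in members than in the other fibroblasts.

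**Figure D5:**
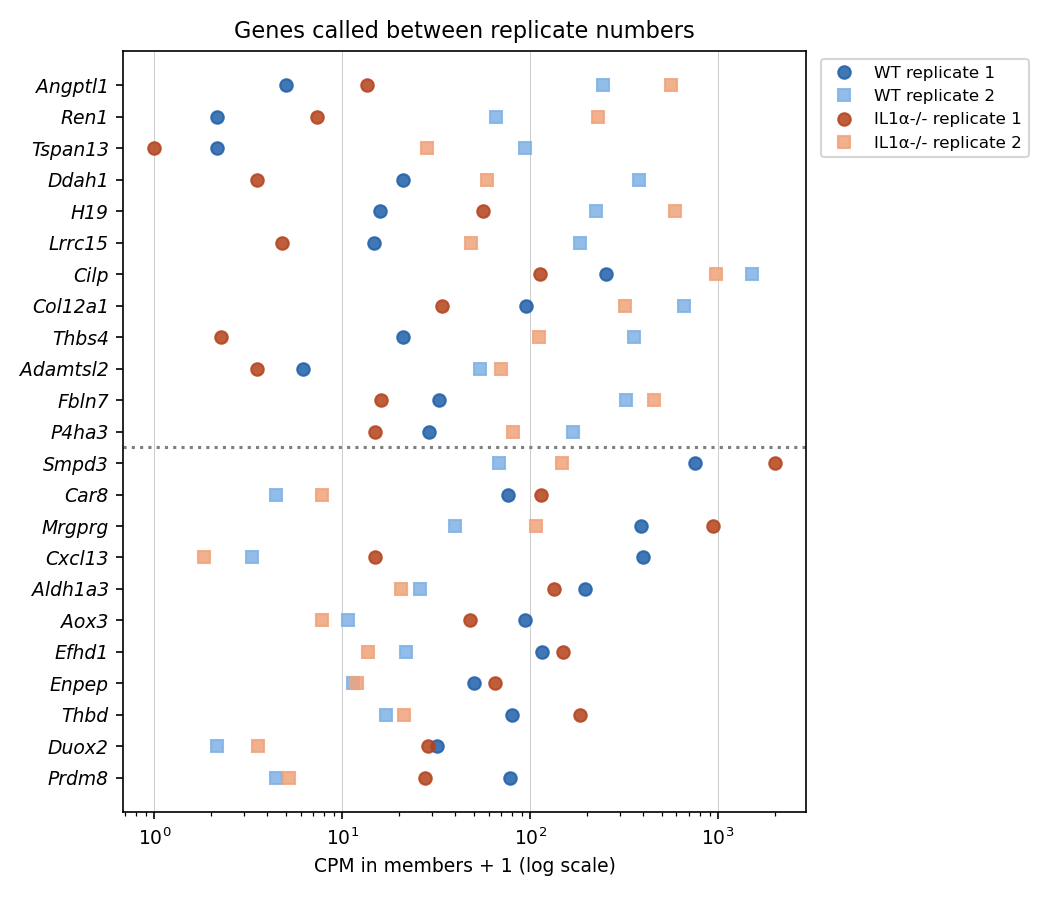
CPM in members plus 1 (x axis, log scale) of 23 genes called between replicate numbers, higher in number 2 above the dotted line and lower below it, with 1 point per tumour. Circles (number 1) and squares (number 2) do not overlap within any gene, which the choice of genes required, and Angptl1 at the top goes from 4.01 and 12.6 CPM to 243 and 560 CPM.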

How the data were processed

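The deposited values are raw UMI counts per gene and barcode, made by the authors with Cell Ranger 3.1.0 and mm10, per the submitters' processing notes. Feature names carry prefixes of a combined human and mouse reference, and 31053 mouse features were used. Empty droplets had not been removed, and no cell annotation was used. Members and gene lists were chosen with earlier results of these data known. UMIs were summed per tumour and tested with edgeR 4.0.16 (quasi-likelihood, filterByExpr, TMM, Benjamini-Hochberg over all genes tested, threshold 0.05), with DESeq2 1.42.0 as an alternative. The fits were tested on simulated counts with true log2 differences of 1 and 2. The genotype fit called 5 and 68 of 100 such genes, with 4 false calls. The interaction fit called 5 and 50 of 100, with 3 false calls. The fit of members against other fibroblasts called 71 and 98 of 100, with 9 false calls. The replicate number fit called 16 of 100 and 84 of 99, with 2 false calls. A count of 0 calls by genotype or interaction therefore does not show that no gene differed. SE is the log2 difference divided by the root of its F statistic. Named genes had at least 30 UMIs, were not ribosomal, mitochondrial or unnamed models, and were the 12 of smallest p per direction, all called and without overlap, or 6 where fewer than 6 were called. Each list also names its called genes, or otherwise from its 4 most abundant. Alternatives changed the gate, depth, mitochondrial and matrix limits, doublets (Scrublet in scanpy 1.11.5, highest 0.8% per 1000 removed), scaling, filter, tumours and blocks. Doublets were kept in the main counts, and their removal takes 4, 1, 4 and 2 members. Positions are from GENCODE M21 (GRCm38). UMIs of human features were not used. Some list genes are not reported here.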

Additional observations from a re-analysis of the deposited data

Results flagged for a closer look

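UMIs assigned to human genes lie outside the mouse measurement and were counted in each library, because the reference holds both species. They numbered 1381 in WT replicate 1, 509 in IL1α-/- replicate 1, 1514 in WT replicate 2 and 1037 in IL1α-/- replicate 2. Per 1000000 UMIs of both species this is 58.9, 75.9, 52.2 and 67.8 in the same order, above what a count of 0 would allow. No human cells are named in the labels, and the origin of these UMIs was not tested.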

How the results depend on the processing

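Each result was recomputed under each alternative. The difference in share of fibroblasts between IL1α-/- and WT turned to -10.5 points when Pi16 and Dpp4 both had to be present, and ranged from -1.49 to 20.9 points with 1 tumour left out. The share of kept barcodes turned to -0.53 points with Pi16 and Dpp4 both present, and ranged from -0.03 to 3.15 points with 1 tumour left out. Genotype calls in members were 6 with DESeq2 and 0 to 4 with 1 tumour left out (4 without WT replicate 1, 2 without IL1α-/- replicate 2). Calls between members and other fibroblasts were 59 after thinning, 883 without a filter on low counts, 8 without the tumour block and 181 to 425 with 1 tumour left out. Interaction calls were 2 after thinning, 16 without the filter and 0 to 19 with 1 tumour left out. Replicate number calls ran from 0 to 167, with 90 under RLE scaling, 95 with Pi16 and Dpp4 both present and 18 without the filter. The cause of these changes was not tested.

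The replicate numbers are shared between groups, but the labels do not tie a number to a day. The deviations of same-numbered members correlated with r = 0.296 over 9136 genes, a description. With the replicate number as a block, edgeR called 0 genes by genotype (759 at an unadjusted p under 0.05), and Thbs1 turned to -0.15. The share differences of 9.72 and 1.56 points could not change under this block, since each number holds a WT and an IL1α-/- tumour. The block changed no other call.

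Signs of uncalled genes turned as follows. With Pi16 and Dpp4 both present, Il1rap was 0.14, Il33 0.13, Cxcl12 -0.16 and Thbs1 -0.53. With at least 2% matrix UMIs, Il33 was 0.015 and Thbs1 -0.0080. Thinned, Efemp1 was 0.26 and Thbs1 -0.75, and with at least 3 gate UMIs Cxcl12 was -0.013. With 1 tumour left out, Efemp1 ranged from -0.80 to 0.65, Il1rap from -0.67 to 0.26, Il33 from -1.41 to 0.64, Cxcl12 from -0.39 to 0.53 and Thbs1 from -1.27 to 0.75. The 24 genes named between members and other fibroblasts kept their direction in the 442 other fits that tested them, and 24 of these fits lost the call, 19 without the tumour block and 5 after thinning.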
